A study of Mactra quadrangularis with 6 samples.

Results

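The genes described here carry the signals of nerves: precursors of neuropeptides, the enzymes that finish them, the receptors that read them, 2 enzymes of monoamine synthesis, and proteins of the synaptic vesicle. They were chosen by words in the description that the deposited gene table gives for the closest described relative, and 177 of its 25145 genes met the rule. The rule itself uses no expression value, though it was set with earlier results of these data known. A name therefore says what a gene resembles and is not a tested function. The rule matched 146 receptors, 19 synaptic vesicle genes, 5 peptide precursors, 2 amidating enzymes, 2 monoamine enzymes and 3 synaptotagmin-like or extended synaptotagmin genes.

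The samples are mantle, which lines and builds the shell, from the surf clam Mactra quadrangularis, also known as Mactra veneriformis. Poly(A) RNA was sequenced in 6 libraries, 3 labelled as acidification stress (Acd_p1 to Acd_p3) and 3 labelled as control (Con_p1 to Con_p3), called acidified and control here. The design text speaks of different shell colours and of high pH for the acidified animals, which is at odds with the label, and the sources used here do not give the pH, duration, clam age or the colour behind the letter p. Whether each library is a separate animal is not stated, so p-values measure the spread between these libraries, which may be technical.

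Neuropeptides are cut from larger precursors, often amidated at their carboxy end, stored in dense vesicles and released by calcium-triggered fusion. Most act through G protein-coupled receptors, while a sodium channel of molluscs opens directly on FMRFamide. In molluscs such peptides set the beat and tone of muscle, feeding, egg laying and ciliary movement, and the mantle receives nerves from the central ganglia. In a piece of tissue, fewer cells of a type and less RNA per cell cannot be told apart.

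Most of these genes were sparse in the mantle, and 1 precursor outweighed all others. FPKM, the deposited level per transcript length and library size, had a median of 0.474 over the 177 genes and 1.16 over all genes. A mean FPKM of 1 or more was reached by 61 of them (34.5%) against 52.2% of all genes, and 10 or more by 9 (5.08%) against 15.9%. In a single library between 125 and 138 of them had at least 1 count, and 12 had none in any library. The myomodulin neuropeptides 2-like gene alone held 40.5% of their summed FPKM. That sum was 663, 456 and 609 in the acidified libraries and 575, 499 and 588 in the control libraries, so the groups overlapped. Without myomodulin it was 309, 290 and 303 FPKM in the acidified libraries against 354, 341 and 420 in the control libraries, and each acidified library lay below each control library. FPKM lacks the TMM scaling of the fold changes, and with library size as the only scaling the median over all genes is -0.33 on the log2 scale.

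**Figure D1:**
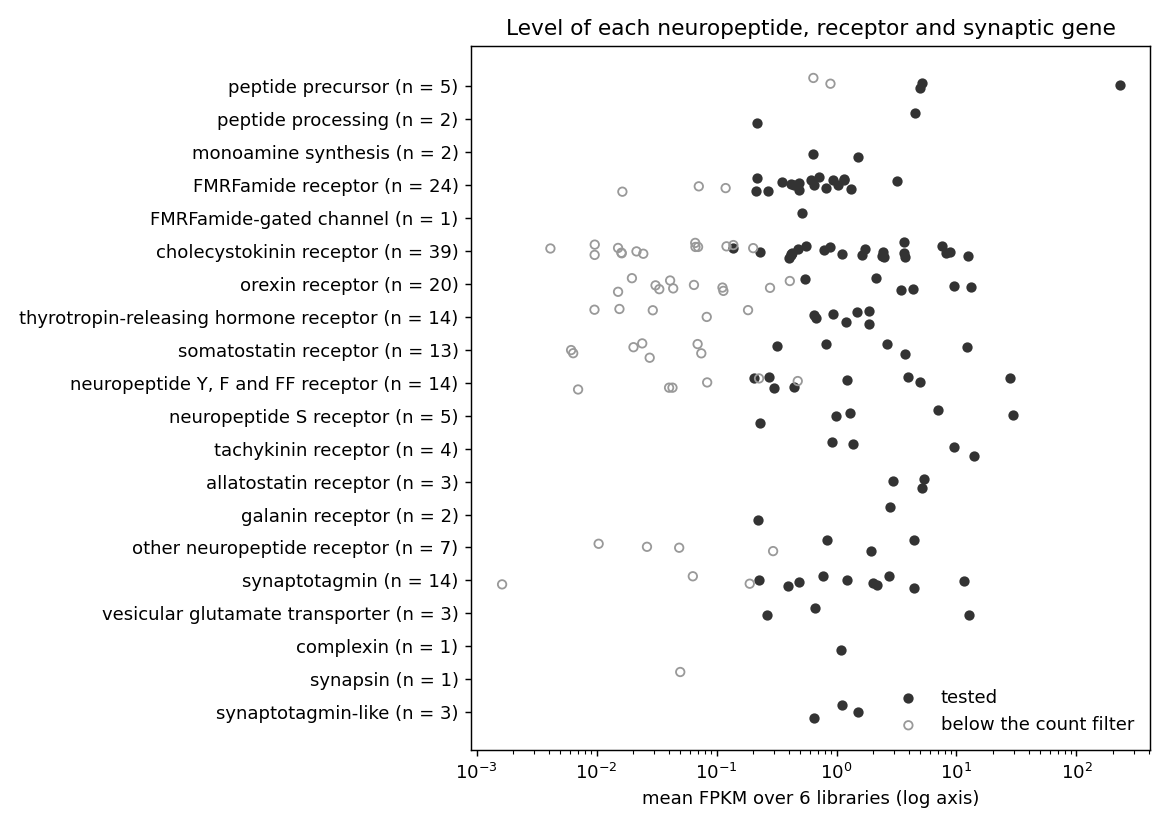
Mean FPKM over the 6 libraries (horizontal log axis) of each gene, 1 point per gene, by family, with n the number of genes in the family. Filled points are genes with enough counts to test and open points those below the count filter, and the 12 genes with no count are not drawn. Myomodulin stands alone at 229 FPKM, while every open point lies under 1 FPKM.

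Counts allowed a test for 109 of the 177 genes. Of the 68 left out, 56 had some counts, with at most 57 in any 1 library, and 61 were receptors. The quasi-likelihood test of edgeR, adjusted by Benjamini-Hochberg over all 17790 genes tested, called none of them at an adjusted p under 0.05. The same held for all genes, with 0 called (0%). At an unadjusted p under 0.05, 6 of the 109 were higher in the acidified libraries (5.50%) and 2 were lower (1.83%), against 9.29% and 8.13% of all genes. Both shares are below the background, which was not matched for level. A filter of CPM at least 1 in 3 libraries left 75 of these genes and 15084 of all genes. DESeq2 on the same counts called 3 of them higher and 1 lower at an adjusted p under 0.05, where it called 3.68% of genes higher and 2.58% lower.

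The groups did not overlap, with all acidified libraries above all control libraries, for 12 of the 109 genes (11.0%), against 12.2% of all genes. All lay below for 5 (4.59%), against 13.4%. The median log2 fold change, acidified against control, was 0.07 (middle 50% from -0.30 to 0.39) over the 109 genes and 0.00 (-0.47 to 0.43) over all genes tested. With library size as the only scaling the medians were -0.23 and -0.33, and with the trend over transcript length removed they were -0.02 and 0.02. By role, the median log2 fold change was 0.10 over 85 receptors, -0.31 over 14 synaptic vesicle genes and 0.14 over 3 precursors. With 1 library left out, the receptor median ran from 0.02 (without acidified library 1) to 0.17 (without control library 2). With the length trend removed the receptor median was 0.03. The vesicle median ran from -0.37 to -0.16 (without control library 1) and was -0.05 over the 10 vesicle genes that reached a CPM of 1 in 3 libraries. The precursor median ran from -0.16 (without acidified library 2) to 0.28 (without acidified library 1).

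**Figure D2:**
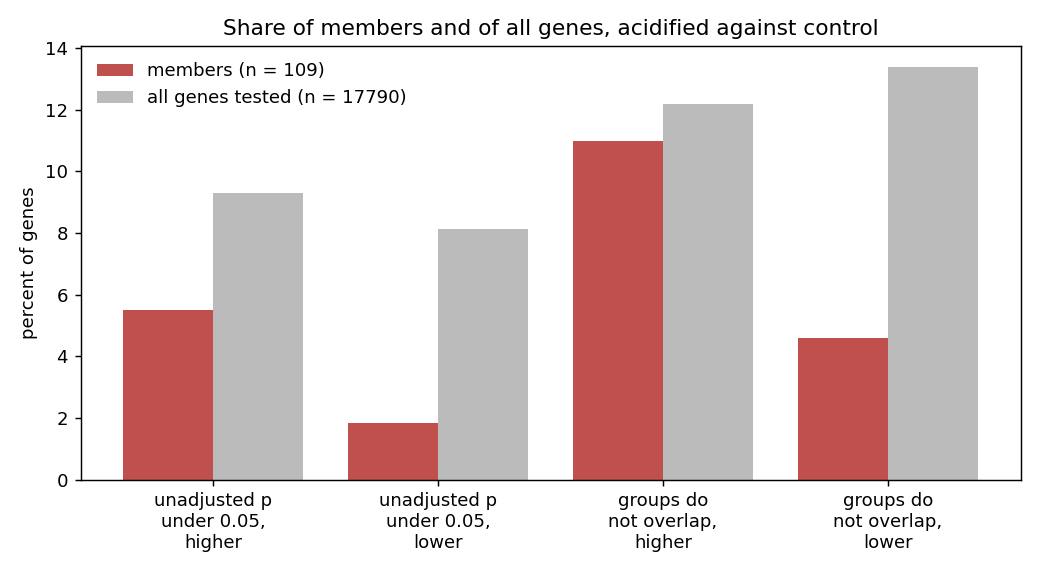
Bars give the percent of the 109 tested genes (red) and of all 17790 genes tested (grey) in each class, higher or lower in the acidified libraries. The share of these genes is below that of all genes in each of the 4 classes, with the widest gap among genes whose acidified libraries all lay below the control libraries, 4.59% against 13.4%.

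Among the precursors, myomodulin stood highest. The myomodulin neuropeptides 2-like gene (Mve16G003990, chromosome 16, 10984005 to 10985375 in the table's coordinates, of a genome build that the sources used here do not name) resembles a precursor of short peptides that modulate muscle contraction in the sea slug Aplysia. Its level was above 98.5% of all genes. Its scaled CPM, meaning counts relative to library size after TMM scaling between libraries, was 397, 207 and 398 in the acidified libraries and 219, 157 and 153 in the control libraries. Acidified libraries 1 and 3 stood well above the rest, while acidified library 2 lay under control library 1, so the groups overlapped. Its log2 fold change was 0.92 ± 0.30 (SE), with adjusted p = 0.192 in edgeR. It kept an unadjusted p under 0.05 in 2 of the 6 fits that left out a library, and with library size alone, where the median of all genes is -0.33, the log2 fold change was 0.62 with adjusted p = 0.3. In FPKM the means were 276 ± 97.6 (SD, n = 3) and 182 ± 34.0 (SD, n = 3).

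The other precursors were far sparser. The Lys-conopressin precursor gene (Mve13G000890), of the vasopressin and oxytocin family, had a log2 fold change of 0.14 ± 0.34 at a mean of 5.13 FPKM. The prohormone-4-like gene (Mve02G020910), named after an insect precursor, had -0.08 ± 0.39 at 4.93 FPKM. For both genes the groups overlapped and the sign turned under other settings. The cerebrin prohormone-like gene (Mve12G011120), related to a precursor from the Aplysia nervous system, had 4, 0 and 54 counts in the acidified libraries and none in any control library. Against a floor of 3 counts per library its mean was at least 7.49-fold higher, and nearly all of that came from acidified library 3. The neuropeptide Y gene (Mve07G009690) had 34 counts in acidified library 2 and none elsewhere, so both genes rest on 1 library for most of their counts and neither was tested.

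The amidating enzymes, which turn a terminal glycine into the amide that many neuropeptides need, showed no separation of the groups. The more abundant gene (Mve10G005470) had 14.5, 7.11 and 6.93 scaled CPM in the acidified libraries and 9.86, 6.86 and 9.50 in the control libraries. Acidified library 1 was highest and the rest lay close together. Its log2 fold change was 0.12 ± 0.35, and -0.32 without that library. The second gene (Mve10G003470) stood at 0.217 FPKM with a log2 fold change of -0.87 ± 1.19.

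Of a wider list of 87 secretion and peptide processing genes, which share no gene with the rule, 60 were tested. In edgeR an unadjusted p under 0.05 was found for 4 on the higher (6.67%) and 7 on the lower side (11.7%), near the 9.29% and 8.13% of all genes. None passed the adjusted threshold, and the median log2 fold change was -0.16. The carboxypeptidase D-like gene (Mve02G006810), of an enzyme family that trims basic residues from cut precursors, had 3.42, 5.14 and 5.41 scaled CPM against 1.64, 1.93 and 2.06. Every acidified library lay above every control library, with a log2 fold change of 1.31 ± 0.34. A PCSK5-like convertase gene (Mve14G012290), of the family that cuts precursors, had no count in the acidified libraries and 37, 11 and 13 in the controls, at least 5.34-fold higher in the control group. The synaptobrevin homolog YKT6-like gene (Mve13G009960), for a SNARE of membrane fusion, had a log2 fold change of -1.06 ± 0.27, and ras-related protein Rab-35 (Mve19G003070), a small GTPase of endosome recycling that a text pattern for Rab-3 picked up, had 0.88 ± 0.22.

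Receptors made up most of the genes and most of the silence. Of 146, 85 were tested and 11 had no count. An unadjusted p under 0.05 in edgeR was found for 3 on the higher and 1 on the lower side, which is 3.53% and 1.18% of them, and groups did not overlap for 9 higher (10.6%) and 4 lower (4.71%). All genes had 9.29% and 8.13% at that p and 12.2% and 13.4% without overlap. Each receptor share was below this background, which was not matched for level. Of the 85, 52 had a log2 fold change above 0, as did 8865 of all 17790 genes tested. Library size as the only scaling moves the median of all genes to -0.33, and relative to the median of all genes the receptor median was then 0.11, against 0.10 with TMM scaling. With the trend over transcript length removed, 44 receptors lay above 0 and 41 below. Their median was then 0.03, or 0.01 relative to the median of all genes. The largest families were named after the cholecystokinin receptor (39 genes, 23 tested), the FMRFamide receptor (24 genes, 18 tested) and the orexin receptor (20 genes, 6 tested). Many genes share a description, so where sequences are close, reads may be split between copies and single values are uncertain.

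The tachykinin-like peptides receptor 99D genes resemble a Drosophila receptor for tachykinin-related peptides, which act on gut and nerve in insects. The most abundant of the 4 (Mve18G002430, chromosome 18, 5715276 to 5716876) had 14.4, 56.2 and 26.1 scaled CPM in the acidified libraries and 12.0, 9.58 and 12.0 in the controls. The control libraries lay close together, all acidified libraries lay above them, and acidified library 2 stood far above its own group. Between the groups the log2 fold change was 1.52 ± 0.46, with adjusted p = 0.177 in edgeR and adjusted p = 0.0251 in DESeq2. Without acidified library 2 it was 0.85 with adjusted p = 0.285 in edgeR. The other 3 genes of the name had log2 fold changes of -0.01 ± 0.23 (Mve02G005510), 0.60 ± 0.35 (Mve01G015820) and 0.22 ± 0.45 (Mve02G008170), each with overlapping groups.

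Receptors named after FMRFamide, the peptide that excites or relaxes molluscan muscle, had log2 fold changes from -1.44 to 2.36 over the 18 tested. The gene with the smallest p (Mve08G005630, chromosome 8, 17273427 to 17274389) had 0.854, 2.32 and 1.21 scaled CPM in the acidified libraries and 0.142, 0.252 and 0.448 in the controls. The acidified libraries all lay above the controls, at a low level in both groups. The log2 fold change was 2.36 ± 0.75, with adjusted p = 0.19 in edgeR, and without acidified library 2 it was 1.85 with adjusted p = 0.382. Its direct neighbour Mve08G005640, of the same description, had 15 counts in the acidified libraries, from 2 of them, and none in the controls. The most abundant gene of the name (Mve16G001120) reached only 3.20 FPKM and had -0.19 ± 0.31.

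A further FMRFamide receptor-like gene (Mve08G012780), picked out after its values were seen, had 2.03, 2.16 and 15.5 scaled CPM in the acidified libraries and 1.93, 2.13 and 1.85 in the controls. Acidified library 3 alone stood apart and the other 5 were nearly level. Its log2 fold change of 1.74 became 0.09 without that library. Over the 18 tested receptors of the name, 10 lay above 0 and 8 below, with a median of 0.29 that became 0.14 without acidified library 1 and 0.16 without acidified library 3. The FMRFamide-gated sodium channel gene had a log2 fold change of -0.30, with overlapping groups, and 0.03 without acidified library 3 or 0.05 without control library 1.

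The neuropeptide FF receptor 2-like gene (Mve10G000840, chromosome 10, 3593071 to 3595287) was among the most abundant receptors, at 28.1 FPKM. In vertebrates the receptor of that name binds peptides that end, like FMRFamide, in an amidated arginine and phenylalanine. It had 51.1, 31.4 and 62.7 scaled CPM in the acidified libraries and 85.8, 77.4 and 107 in the controls. All acidified libraries lay below all controls. Its log2 fold change was -0.89 ± 0.28, with adjusted p = 0.187 in edgeR and adjusted p = 0.0579 in DESeq2. In the fits that left out a library it ran from -1.12 to -0.67. The other 7 tested receptors of the neuropeptide Y, F and FF group each had an unadjusted p above 0.05.

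The receptor with the highest level was a neuropeptide S receptor-like gene (Mve02G006050), at 29.5 FPKM, named after a vertebrate receptor for an arousal peptide. It had 59.1, 65.2 and 48.0 scaled CPM in the acidified libraries and 69.5, 71.1 and 115 in the controls. Every acidified library lay below every control library, though by little apart from control library 3. Between the groups the log2 fold change was -0.57 ± 0.25, with adjusted p = 0.304 in edgeR. The other 4 genes of the name had log2 fold changes between 0.08 and 0.18.

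Receptors named after orexin, a vertebrate peptide of feeding and wakefulness, lay below the count filter in 14 of 20 cases. Their most abundant gene (Mve06G002760), at 13.1 FPKM, had a log2 fold change of 0.14 ± 0.25. The orexin receptor type 2-like gene Mve15G001120 (chromosome 15, 3225841 to 3254835) had 14.3, 11.5 and 17.8 scaled CPM in the acidified libraries and 9.86, 8.88 and 10.2 in the controls. The acidified libraries all lay above the controls. The log2 fold change was 0.59 ± 0.23, with adjusted p = 0.25 in edgeR, and an unadjusted p under 0.05 in 1 of the 6 fits that left out a library. All 6 tested genes of the name lay above 0, with a median log2 fold change of 0.36. With 1 library left out that median ran from 0.25 to 0.57, and it was 0.14 over the 5 genes that reached a CPM of 1 in 3 libraries. Without control library 1, 4 of the 6 lay above 0 and 2 below. With library size alone, where the median of all genes is -0.33, 3 lay above and 3 below. At the low end, an orexin receptor gene (Mve04G004510) had 16, 7 and 12 counts in the controls and none in the acidified libraries, at least 3.04-fold higher in the control group.

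The 39 genes named after cholecystokinin, a gut and brain peptide whose relatives in invertebrates are the sulfakinins, held no gene at an unadjusted p under 0.05. Their median log2 fold change was 0.06. The most abundant (Mve18G002020), at 12.5 FPKM, had 16.5, 11.7 and 13.9 scaled CPM against 13.9, 16.7 and 33.6, with control library 3 high and the groups overlapping. A cholecystokinin receptor-like gene (Mve16G010220) had 4, 3 and 11 counts in the controls and none in the acidified libraries, at least 1.53-fold higher in the control group. Somatostatin receptors, whose peptide restrains secretion in vertebrates, had a median of 0.07 over 5 tested genes, thyrotropin-releasing hormone receptors 0.14 over 7 and allatostatin receptors, whose peptides inhibit gut and hormone glands in insects, 0.19 over 3. With 1 library left out the median turned to -0.07 for cholecystokinin (without control library 3), -0.08 for somatostatin (without acidified library 3) and -0.11 for thyrotropin-releasing hormone receptors (without acidified library 2), and that of the allatostatin receptors was 0.00 without acidified library 3.

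**Figure D3:**
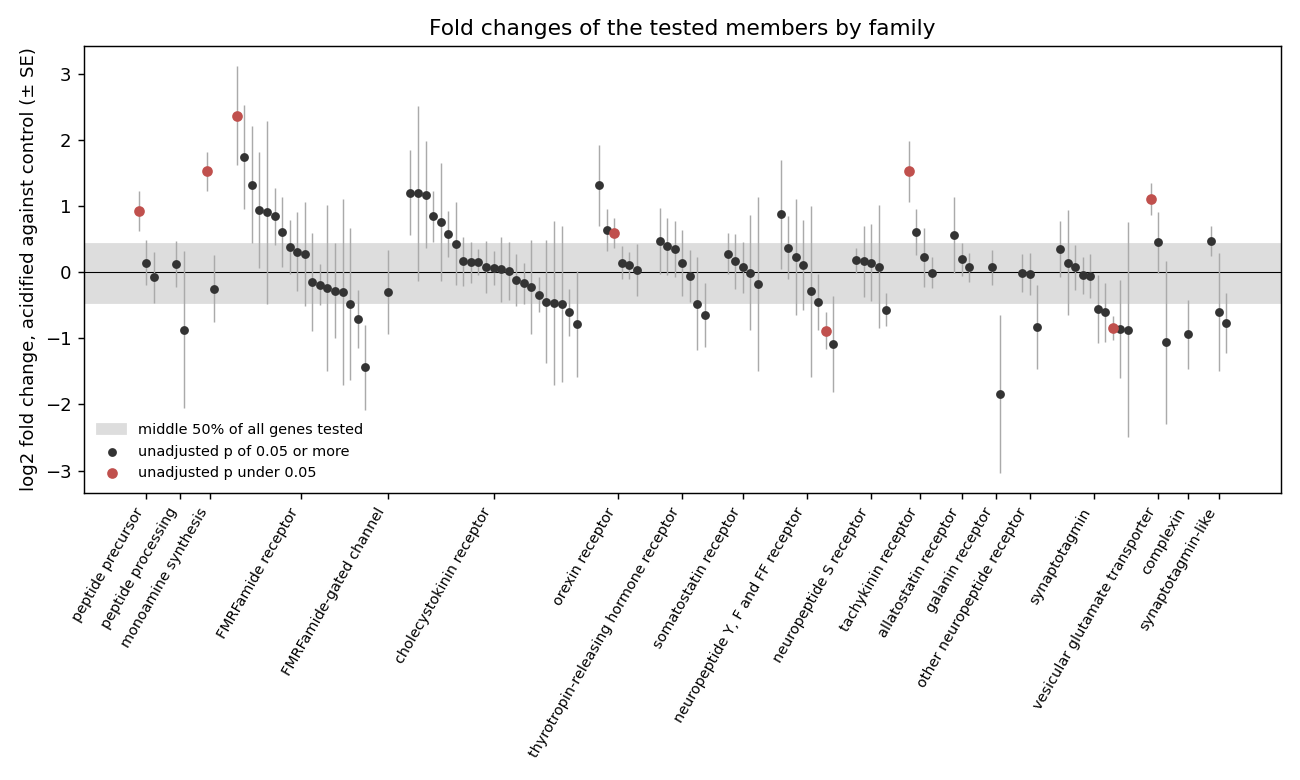
Log2 fold changes, acidified against control, of the 109 tested genes by family, 1 point per gene with bars of ± 1 SE from edgeR. Red points have an unadjusted p under 0.05 and the grey band is the middle 50% of all genes tested, -0.47 to 0.43. The 6 higher and 2 lower genes each belong to a different family, and the sparse genes carry the widest bars.

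The enzyme at the start of serotonin synthesis gave the smallest p of all 109 genes. The tryptophan 5-hydroxylase 1-like gene (Mve05G008200, chromosome 5, 24691043 to 24715897) had 5.38, 6.68 and 7.41 scaled CPM in the acidified libraries and 1.93, 2.41 and 2.45 in the controls. All acidified libraries lay above all controls. Its log2 fold change was 1.52 ± 0.29, which is 2.86-fold, with adjusted p = 0.118 in edgeR and adjusted p = 0.00217 in DESeq2. It ran from 1.41 to 1.63 when any 1 library was left out. In FPKM its means were 2.09 ± 0.182 (SD, n = 3) and 0.925 ± 0.153 (SD, n = 3). The tyrosine 3-monooxygenase-like gene (Mve05G015590), which makes the dopamine precursor, had a log2 fold change of -0.25 ± 0.51 with overlapping groups.

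A list of 68 other monoamine genes had 46 tested. At an unadjusted p under 0.05 it held 4 genes on each side (8.70%), near the 9.29% and 8.13% of all genes, with 0 past the adjusted threshold in edgeR and a median log2 fold change of -0.02. Of the tyramine beta-hydroxylase-like genes, whose insect relative makes octopamine, Mve03G018070 had 14.6, 14.0 and 5.72 scaled CPM against 2.69, 1.43 and 1.48, a log2 fold change of 2.61 ± 0.46. The more abundant Mve19G000270 was lower, with 52.4, 79.0 and 91.4 against 143, 123 and 246, a log2 fold change of -1.20 ± 0.33. The groups overlapped for neither gene. A 5-hydroxytryptamine receptor 1A-like gene (Mve13G001990), for a serotonin receptor, had -0.80 ± 0.27, and an amine oxidase gene (Mve07G000040), of a family that breaks monoamines down, had 0.75 ± 0.23.

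At the synaptic vesicle, a glutamate transporter lay higher and a calcium sensor lower in the acidified libraries. The vesicular glutamate transporter 2.2-like gene (Mve10G005600, chromosome 10, 20639321 to 20653732), which fills vesicles with glutamate, had 30.1, 24.9 and 40.4 scaled CPM in the acidified libraries and 14.8, 13.2 and 16.5 in the controls. Every acidified library lay above every control library. Between the groups the log2 fold change was 1.10 ± 0.24, with adjusted p = 0.12 in edgeR and adjusted p = 0.00432 in DESeq2, and it ran from 0.89 to 1.24 when any 1 library was left out. The other 2 glutamate transporter genes had 0.45 ± 0.46 and -1.06 ± 1.23 and were sparse.

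Synaptotagmin 1 (Mve05G011100, chromosome 5, 33896614 to 33942452) triggers vesicle fusion when calcium enters. It had 31.4, 31.6 and 30.0 scaled CPM in the acidified libraries and 62.8, 48.2 and 54.9 in the controls. The acidified libraries were nearly level, and all lay below all controls. The log2 fold change was -0.84 ± 0.18, a level 1.79-fold higher in the controls, with adjusted p = 0.12 in edgeR and adjusted p = 0.00272 in DESeq2. It ran from -0.93 to -0.74 when any 1 library was left out. In FPKM its means were 7.11 ± 0.682 (SD, n = 3) and 16.0 ± 2.25 (SD, n = 3).

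The other 9 tested synaptotagmins each had an unadjusted p above 0.05, and of all 10 there were 3 above 0 and 7 below, with a median of -0.31 that became -0.16 without control library 1. Synaptotagmin-15 (Mve01G007750) had a log2 fold change of -0.05 ± 0.28 and synaptotagmin-B-like (Mve04G005760) 0.07 ± 0.34. The complexin gene (Mve13G000990), whose product clamps the fusion machinery, had 1.60, 1.08 and 1.75 scaled CPM against 2.86, 1.34 and 4.33, with overlapping groups and a log2 fold change of -0.94 ± 0.52. Synapsin, which tethers vesicles, had too few counts to test. Of the relatives outside the synapse, the extended synaptotagmin-1-like gene (Mve02G009090), which tethers the endoplasmic reticulum to the plasma membrane, had 0.47 ± 0.23 without overlap, and the synaptotagmin-like protein 5 genes, named after Rab effectors, had -0.77 ± 0.46 (Mve05G016220) and -0.60 ± 0.89 (Mve05G016240).

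**Figure D4:**
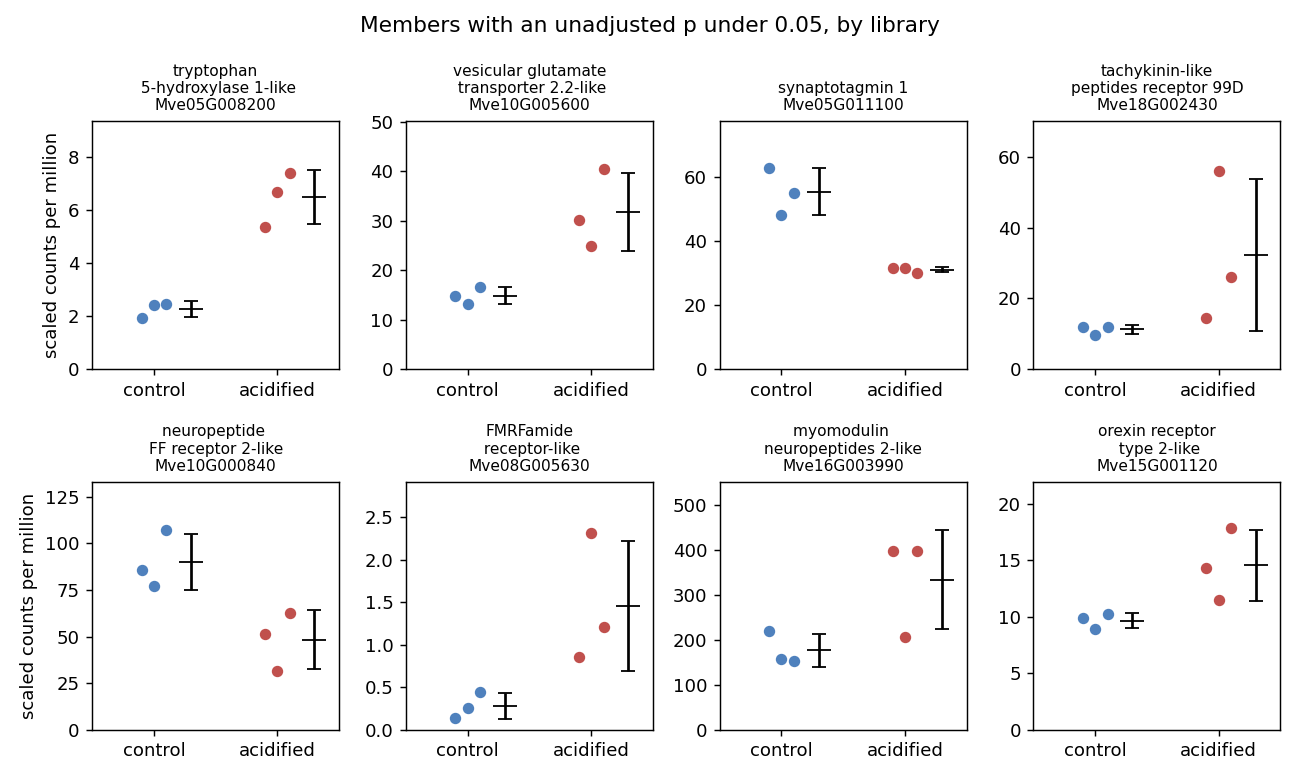
Scaled CPM (linear axes from 0) in each library of the 8 genes with an unadjusted p under 0.05, control in blue and acidified in red, with the mean and SD of 3 libraries in black beside the points. Myomodulin is the panel in which the groups overlap, with acidified library 2 at 207 and control library 1 at 219. In the tachykinin receptor panel acidified library 2, at 56.2, stands far above the other 5 libraries.

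A text list of 94 neuron and glia markers overlapped between the groups in its summed level. That level was 1936 to 1998 scaled CPM in the acidified libraries and 1726 to 2382 in the controls. By the median over its tested genes, each acidified library lay below each control library. This median log2 deviation from the control mean was -0.07, -0.22 and -0.23 against 0.06, 0.01 and 0.06. In the list, 6 genes had no count. Of 64 tested in it, an unadjusted p under 0.05 in edgeR was found for 1 on the higher and 7 on the lower side. Its shares of 1.56% and 10.9% compare with 9.29% and 8.13% of all genes. Single markers lay on both sides. Synaptophysin, a vesicle membrane protein, had 5.91, 6.80 and 4.93 scaled CPM against 12.5, 7.65 and 8.55, and the neurexin, neuroligin and para sodium channel genes also lay below all controls. The text syntaxin-1 picked up 3 genes, which summed to 18.9, 21.1 and 18.4 against 17.9, 16.3 and 16.4. That text also matches syntaxins of higher number, so the sum is not read as the SNARE of the synapse alone. The stathmin gene also lay above all controls. The word neurogenic mostly picked up a Notch homolog (Mve17G008190), which is not read as a nerve marker. It had 501, 530 and 406 scaled CPM in the acidified libraries against 309, 390 and 291, and it counts in the summed level of the list. It is also the 1 gene of the list on the higher side, with an unadjusted p = 0.0271 in edgeR. The ELAV-like genes, for RNA-binding proteins of neurons, summed to 37.2 to 43.4 against 40.0 to 49.4 and overlapped. The part of nerve content in the values above was not tested. Of the other lists, 22 haemocyte markers summed to 688 to 811 scaled CPM in the acidified libraries against 394 to 511, muscle markers to 32017 to 42219 against 22830 to 42930, and markers of the labelled tissue, among them tyrosinase and shell matrix genes, to 4089 to 6159 against 2833 to 4208, with 5 of its 74 genes at 0. Summed levels of the ciliated cell, digestive gland and germ line lists overlapped between the groups. By the median used for the neuron list, the acidified libraries lay above all controls for haemocytes (0.37 to 0.39 against -0.15 to 0.12). The same held for the labelled tissue (0.17 to 0.30 against -0.20 to 0.13). For muscle they lay below all controls (-0.25 to -0.13 against -0.08 to 0.20). The ciliated cell and digestive gland medians overlapped, and the germ line medians met at 0.07. The part of these cells in the results was not tested either.

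Counts in 1 group alone were found for 29 of the 177 genes, 16 in the acidified and 13 in the control libraries. The same share over all genes was not taken. The number is therefore not read as a trait of these genes, which are sparse. In 21 of them the counts came from 1 library and in 6 from 2. The exceptions were the orexin and cholecystokinin receptor genes Mve04G004510 and Mve16G010220 given above, counted in all 3 control libraries.

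The genes were unevenly spread over the genome. Chromosome 18 held 15 of them among its 980 genes and chromosome 10 held 16 among 1106, whereas chromosome 17 held 1 among 917. Chromosome 18 carried 10 cholecystokinin receptors and chromosome 8 carried 9 FMRFamide receptors. In the table's order 36 of the genes stood directly next to another of them, in 17 runs of at most 3 genes. The runs of 3 were FMRFamide receptors on chromosome 8 and orexin receptors on chromosome 15. Of the 3 FMRFamide receptors in that run, Mve08G005550 had a log2 fold change of -0.48 ± 1.15, Mve08G005560 -0.28 ± 0.72 and Mve08G005570 1.32 ± 0.88. Single libraries carried much of these values, since Mve08G005550 was at 0.86 without control library 1 and Mve08G005570 at 0.43 without acidified library 1.

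The deposited annotation terms, which the rule did not use, placed 124 of the genes in the KEGG pathway of neuroactive ligand-receptor interaction. The share of all genes in that pathway was not taken. Where terms and descriptions come from the same relatives, a match follows from the rule, so it is no separate evidence of function. The gene ontology term neuropeptide signaling pathway was given to 46 of them (26.0%), against 0.461% of all genes. Calcium-regulated exocytosis of neurotransmitter was given to 14 of them out of 19 genes in the table. Their transcripts were mostly short, with a median length at percentile 35.3 of the genes tested.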

How the data were processed

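Raw counts per gene were deposited by the authors as whole numbers, with FPKM values deposited beside them, per the file headers. Per the submitters' processing notes the tools were cutadapt 1.9, HISAT2 2.2.1, StringTie 2.1.6, DESeq2 and edgeR, and per the labels' protocols the libraries mark strand. No genome build is named in the sources used here. A further 12 value columns, of 6 libraries outside the listed samples, were not used. Total counts ran from 28482358 to 37066703 per library, so counting error matters mainly for sparse genes.

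Groups came from the library titles. edgeR 4.0.16 (R 4.3.3) was fitted to the counts of all 6 libraries with filterByExpr, TMM scaling (factors 0.8492 to 1.188), group alone and Benjamini-Hochberg adjustment over all 17790 genes. Standard errors were taken from the fold change and the F statistic. Lower bounds used a floor of 3 counts per library, which covers counting error only. DESeq2 1.42.0, other scalings and filters, a replicate block, removal of a loess trend over transcript length (recovered from count and FPKM) and leaving out each library were tried. The edgeR step was also run on simulated counts, with pass marks set only at a low spread between libraries. A run at the fitted spread had no pass mark, so the simulation does not show performance at the spread of these data.

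The genes and lists were chosen with earlier results of these data known. Named genes are the 4 with the highest mean FPKM in each role, each with an unadjusted p under 0.05, those counted in 1 group alone, here mostly as counts, and the 2 with the smallest p in each direction of the other pathway lists. Further genes of a named family were added after their values were seen. With 3 against 3 libraries, a permutation test of 1 gene cannot reach 0.05. No sequence is shown, since no reference was used here.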

Additional observations from a re-analysis of the deposited data

How the results depend on the processing

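No gene of the 177 was called by edgeR under any alternative, while DESeq2 called 4. The counts at an unadjusted p under 0.05 were 6 higher and 2 lower. Leaving out 1 library gave 4 to 7 higher and 3 to 5 lower, with 5 lower without acidified library 2, and 4 lower without acidified library 3, control library 1 or control library 2. DESeq2 gave 8 higher and 4 lower, and library size alone 4 higher and 8 lower. Removing the length trend gave 9 higher and 3 lower, and no filter on low counts 8 higher and 3 lower. The shares of all genes under these alternatives were not taken, and library size alone moves the median of all genes to -0.33. The median log2 fold change of 0.07 became -0.23 with library size alone and -0.24 on log2(FPKM + 0.1), where composition is not scaled, and 0.00 to 0.11 when a library was left out. The replicate block gave 0 called, 5 higher, 2 lower and a median of 0.09. Deviations of libraries with the same number correlated at -0.04 to 0.01, and those of other numbers at -0.03 to 0.04. Only 1 of the 6 libraries correlated best with its own number. No pairing by number showed in these values, but with 3 libraries per group they cannot settle whether the libraries were paired.

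The 8 genes with an unadjusted p under 0.05 kept their direction under each alternative in which they were tested, and the FMRFamide receptor-like gene Mve08G005630 was not tested at a CPM of at least 1 in 3 libraries. Of the 20 tested genes that the naming rule took, the sign turned for 7 with a log2 fold change between -0.25 and 0.14. Those under library size alone are set against a median of all genes of -0.33. Lys-conopressin (Mve13G000890) became -0.20 with library size alone, -0.13 with the length trend removed and -0.16 to 0.28 when a library was left out. Leaving out a library gave -0.32 to 0.25 for prohormone-4-like (Mve02G020910), -0.42 to 0.02 for tyrosine 3-monooxygenase-like (Mve05G015590) and -0.23 to 0.23 for synaptotagmin-15 (Mve01G007750). The amidating enzyme Mve10G005470 became -0.17 with library size alone and -0.32 to 0.30 when a library was left out. The orexin receptor Mve06G002760 became -0.21 with library size alone, -0.04 with the length trend removed and -0.01 to 0.30 when a library was left out. Synaptotagmin-B-like (Mve04G005760) became -0.23 with library size alone, -0.05 with the length trend removed and -0.13 to 0.36 when a library was left out. The cause was not tested. Low counts and the 3 libraries per group limit the sparse receptors, and 68 of the 177 genes could not be tested.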
